A study of Homo sapiens with 6 samples.

Results

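A set of 10 long noncoding RNAs (lncRNAs) known from the cancer literature was followed in HGC-27, a human gastric cancer cell line: *MALAT1*, *NEAT1*, *H19*, *MEG3*, *HOTAIR*, *PVT1*, *CCAT1*, *UCA1*, *TUG1* and *CYTOR*. The members were chosen by name. Of the 10 names, 9 matched a row among the 58825 genes of the count table through the GENCODE 44 annotation, 7 passed the filter on low counts, and *CCAT1*, which has no gene of that symbol there, was not analysed here. RNA was compared between 3 GC0643 overexpression libraries and 3 Vector control libraries, named as their labels name them, all from HGC-27 cells grown in RPMI-1640 with 10% fetal bovine serum. GC0643 is a gene that the study predicted on sequence outside the human reference genome. The cells were made stable by retroviral infection and puromycin selection, and the number of independent lines is not given. No row of GC0643 was used here, and the labels are therefore not checked by the targeted gene. The study speaks of independent replication for its in vitro experiments in general, but nothing states that these libraries came from separate cultures, and p-values then measure only the spread between these libraries. In RNA from whole cultures, fewer cells that express a gene and less of its RNA per cell cannot be told apart.

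An lncRNA acts as RNA and is not translated into a known protein, though GENCODE types the member *TUG1* as protein-coding. *NEAT1* is the scaffold of paraspeckles, nuclear bodies built from RNA and RNA-binding proteins, and *MALAT1* gathers in nuclear speckles, which are rich in splicing factors. *H19* and *MEG3* are imprinted genes, expressed from the maternal copy. *HOTAIR* lies in the HOXC cluster and is known for its link to the chromatin-silencing complex PRC2. *PVT1* and *CCAT1* neighbour the oncogene *MYC*, *UCA1* was described in bladder cancer, *TUG1* is widely expressed, and *CYTOR* has a near-identical copy, *MIR4435-2HG*, elsewhere on chromosome 2.

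Some of the rows share sequence or reads, which bears on how their counts can be read. The first stretch below is from *CYTOR* (GRCh38, chr2:87606593-87606742, plus strand, exon 4 of the canonical transcript). It occurs with 0 mismatches in *MIR4435-2HG* (chr2:111344088-111344237, minus strand, exon 3). A read or read pair that lies wholly within it therefore cannot be assigned to either gene. The next is a 57-base small RNA annotated within *MALAT1* (chr11:65506117-65506173, plus strand). It is the tRNA-like piece cut from the *MALAT1* 3′ end, known as mascRNA. The last is a window of 120 bases annotated near the 5′ end of *NEAT1* (chr11:65423273-65423392, plus strand), a part that the short and the long *NEAT1* transcripts both hold.

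CYTOR and MIR4435-2HG: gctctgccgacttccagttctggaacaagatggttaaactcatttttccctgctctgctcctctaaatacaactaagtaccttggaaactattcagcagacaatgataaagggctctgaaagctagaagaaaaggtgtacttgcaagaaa
MALAT1, small RNA row: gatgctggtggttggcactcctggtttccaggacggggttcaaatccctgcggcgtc
NEAT1, 5′ window: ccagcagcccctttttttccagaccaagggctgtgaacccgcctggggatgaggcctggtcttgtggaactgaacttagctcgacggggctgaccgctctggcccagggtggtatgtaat

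*H19* is also the host of the microRNA miR-675, whose row lies inside *H19* (GRCh38, chr11:1996759-1996831, minus strand). Its mature arms are shown from RefSeq (GRCh38.p14), with the seed (bases 2 to 8) in capitals. The arms have different seeds.

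hsa-miR-675-5p: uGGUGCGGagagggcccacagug
hsa-miR-675-3p: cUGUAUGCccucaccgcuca

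Library totals ran from 20376722 to 24069166 counts, and 19528 genes passed the filter. The members took 0.0627% to 0.102% of the counts of a library. The libraries also differed in how levels followed the GC content of the genes: the Spearman correlation across genes was 0.54 and 0.58 in Vector control replicates 1 and 3, -0.25 in Vector control replicate 2, and -0.52 to -0.28 in the GC0643 overexpression libraries. Across genes, which are not independent replicates, the fold change between the groups had a correlation of -0.67 with GC content, so the tested members and the gene lists are also given after a correction for GC content. No corrected values are given for the small rows inside the members, whose own GC content need not be that of the RNA they share reads with. None of 10 markers of gastric epithelium exceeded 1 CPM (a count scaled by TMM to a common library total) on average, and 5 of them had 0 counts in every library. By contrast, 9 of 10 mesenchymal markers exceeded 1 CPM, with summed levels of 7431 to 8319 CPM in the GC0643 overexpression libraries and 7571 to 8053 CPM in the Vector control libraries. The defining markers of gastric epithelium were thus at or near 0 in these cells.

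None of the 7 tested lncRNAs passed an adjusted p of 0.05 in edgeR's quasi-likelihood test with Benjamini-Hochberg adjustment over all genes tested. The background was the same, with 0% of all genes passing and a smallest adjusted p of 0.177. At an unadjusted p under 0.05, 1 of the 7 (*TUG1*, higher in GC0643 overexpression) passed, against 18.3% of all genes tested and 8.87% of the 3641 lncRNA genes tested. *TUG1*, typed as protein-coding, is not among those lncRNA genes. The likelihood ratio test, DESeq2 and limma voom also gave 0 members past the adjusted p. At a fold change over 1.5 with an unadjusted p under 0.05 the count was 0, against 2.47% of all genes and 3.46% of lncRNA genes. The groups did not overlap for 1 of the 7, *PVT1*, against 22.4% of all genes. The median log2 fold change was 0.081 over the 7 and 0.018 over all genes tested. With GC correction the median over the 7 was -0.090, and 2 of the 7 passed the unadjusted p, *H19* with higher and *PVT1* with lower levels in GC0643 overexpression, against 6.11% of all genes. The counts of 1 in 7 without GC correction are near their backgrounds and are not a result about the list. The 2 of 7 with GC correction lie above the background, where 277 of the 3641 lncRNA genes passed. They are 2 genes of opposite sign, and they too are not read as a result about the list.

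**Figure D1:**
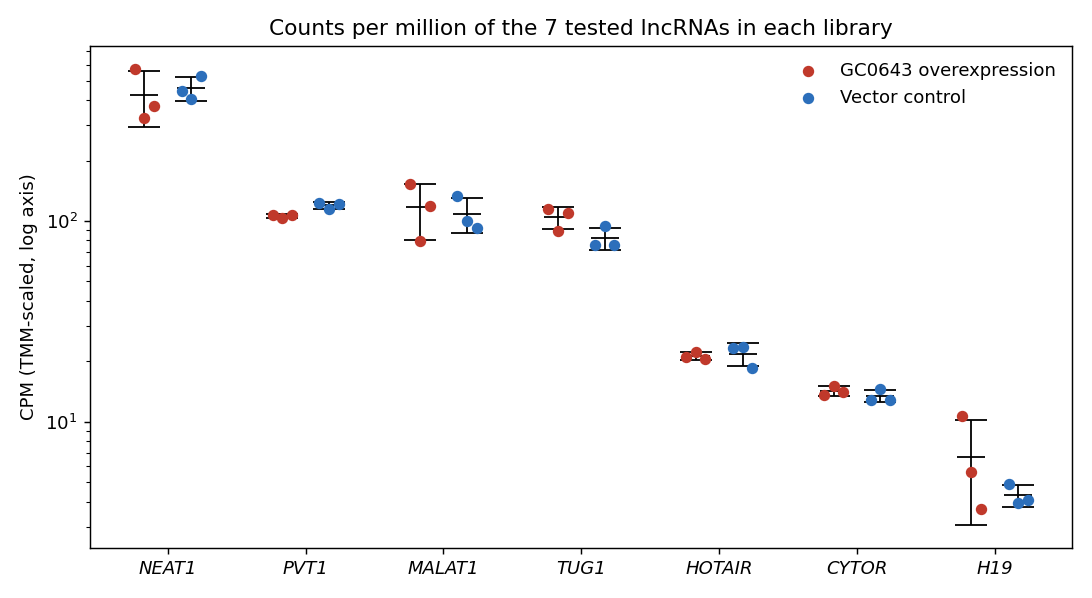
CPM (TMM-scaled, log axis) of the 7 tested lncRNAs, with a point for each library (GC0643 overexpression in red, Vector control in blue) and black bars for the mean and SD of the 3 libraries of a group. The groups overlap for every lncRNA but *PVT1*, whose GC0643 overexpression libraries (103.4 to 107.7 CPM) all lie below the Vector control libraries (114.3 to 122.5 CPM).

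*NEAT1* (ENSG00000245532, GRCh38, chr11:65422774-65445540, plus strand) had the highest level in CPM of all members. It stood at 573, 325 and 374 CPM in GC0643 overexpression replicates 1, 2 and 3 and at 445, 404 and 528 CPM in Vector control replicates 1, 2 and 3. GC0643 overexpression replicate 1 was the highest and replicate 2 the lowest of the 6 libraries, and the groups overlapped. The means were 424 ± 131 CPM (SD, n = 3) and 459 ± 62.9 CPM (SD, n = 3). Its log2 fold change was -0.11 (SE 0.18), with an adjusted p of 0.714 in edgeR's quasi-likelihood test, and with GC correction it was -0.34 (unadjusted p = 0.093). The SD of *NEAT1* within groups, on the log2 scale, was at the 84.4th percentile of the 17360 genes with a mean of at least 1 CPM.

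The annotation holds 4 small rows inside *NEAT1*, 3 near the 5′ end and the microRNA row *MIR612* near the 3′ end, where only the long transcript reaches. The long transcript is the one needed to build paraspeckles. They lie wholly within *NEAT1* and still hold counts, so reads there were not dropped as ambiguous, and their counts may be drawn from the same reads as those of *NEAT1*. The 3 windows at the 5′ end, sampled from offset 500 bases to offset 1187 bases from the start, held 3965, 2206 and 2336 counts in GC0643 overexpression replicates 1, 2 and 3 and 3134, 2684 and 4226 counts in Vector control replicates 1, 2 and 3. *MIR612*, at an offset of 21685 bases, held 36, 12 and 31 counts in the GC0643 overexpression libraries and 27, 22 and 37 counts in the Vector control libraries. Of the counts in these 4 windows, *MIR612* took 0.90% in GC0643 overexpression replicate 1 (95% exact binomial interval 0.631 to 1.24%), 0.541% in replicate 2 (0.280 to 0.943%) and 1.31% in replicate 3 (0.892 to 1.85%). It took 0.854% in Vector control replicate 1 (0.564 to 1.24%), 0.813% in replicate 2 (0.510 to 1.23%) and 0.868% in replicate 3 (0.612 to 1.19%). These intervals cover counting error only. The mean share was 0.917 ± 0.385% (SD, n = 3) against 0.845 ± 0.0286% (SD, n = 3). The difference of 0.0718 percentage points had p = 0.7 in a two-sided exact permutation test, whose smallest possible p is 0.1. Per base, the 3′ window held 2.09 to 5.10% of the counts of the 5′ windows.

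**Figure D2:**
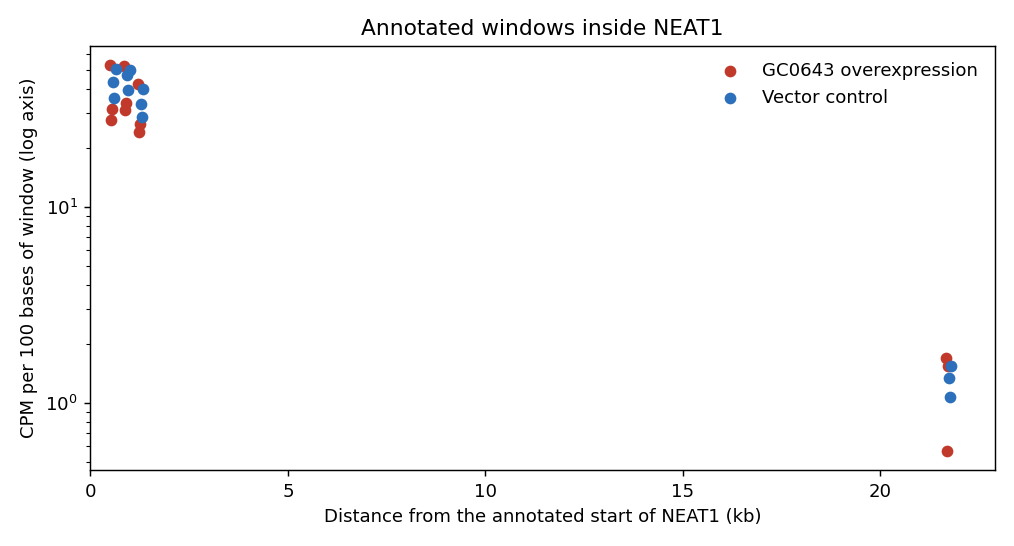
CPM per 100 bases (log axis) in the 4 annotated windows inside *NEAT1*, against the distance of each window from the annotated start, with a point for each library (GC0643 overexpression in red, Vector control in blue). The 3 windows near the 5′ end lie far above the window near the 3′ end in all 6 libraries, and the groups overlap at each window.

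*MALAT1* (ENSG00000251562, GRCh38, chr11:65497640-65508073, plus strand), which neighbours *NEAT1*, stood at 153, 79.5 and 118 CPM in GC0643 overexpression replicates 1, 2 and 3 and at 133, 99.8 and 92.6 CPM in Vector control replicates 1, 2 and 3. As for *NEAT1*, GC0643 overexpression replicate 1 was the highest and replicate 2 the lowest. The means were 116.8 ± 36.7 CPM (SD, n = 3) and 108.4 ± 21.5 CPM (SD, n = 3), and the groups overlapped. The fitted log2 fold change was 0.11 (SE 0.20), with an adjusted p of 0.758 in edgeR's quasi-likelihood test. It turned to -0.16 with GC correction (unadjusted p = 0.42). The spread within groups was at the 90.2nd percentile. The small RNA row shown above (ENSG00000274072) had 37, 20 and 17 counts in the GC0643 overexpression libraries and 16, 18 and 27 counts in the Vector control libraries, which overlap. A second row inside *MALAT1*, ENSG00000278217, had 147, 99 and 129 counts against 141, 104 and 116 counts. Reads of both rows may be the same as those of *MALAT1*. Beside *MALAT1* and *NEAT1*, the protein-coding genes *FRMD8* and *LTBP3* (a binding protein of latent TGF-beta) had log2 fold changes of -0.19 and -0.15, and neither passed an unadjusted p of 0.05.

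*H19* (ENSG00000130600, GRCh38, chr11:1995166-2004552, minus strand) had the largest fold change among the members, and 1 library carried most of it. It stood at 10.6, 5.62 and 3.70 CPM in GC0643 overexpression replicates 1, 2 and 3 (228, 119 and 75 counts) and at 4.93, 3.93 and 4.08 CPM in Vector control replicates 1, 2 and 3 (100, 81 and 98 counts). Replicate 1 of GC0643 overexpression stood above all others, while replicate 3 was the lowest of the 6, so the groups overlapped. The means were 6.65 ± 3.58 CPM (SD, n = 3) and 4.31 ± 0.538 CPM (SD, n = 3). The log2 fold change was 0.63 (SE 0.30), with an unadjusted p of 0.0517 and an adjusted p of 0.274 in edgeR's quasi-likelihood test. Without GC0643 overexpression replicate 1 it was 0.12 (unadjusted p = 0.644), and with GC correction 0.79 (unadjusted p = 0.029). The spread of *H19* within groups was at the 97.1st percentile. The host row and the *MIR675* row did not share a direction: *MIR675* had 12, 7 and 8 counts against 15, 11 and 9 counts (log2 fold change -0.34, SE 0.46, unadjusted p = 0.476). On the opposite strand inside *H19*, ENSG00000274866 (0.92, unadjusted p = 0.148) and ENSG00000275266 (0.51, unadjusted p = 0.386) had the sign of *H19* in the same edgeR test. They held 69 and 100 counts over all libraries. Reads of the *MIR675* row may be the same as those of *H19*, so its direction is not separate evidence. Since the counting is not stated to use strand, reads of the antisense rows cannot be told apart from those of *H19*. *IGF2*, the imprinted growth factor gene next to *H19*, stood at 18.3 ± 3.45 CPM (SD, n = 3) in GC0643 overexpression and 19.6 ± 0.820 CPM (SD, n = 3) in Vector control. Its log2 fold change was -0.10, and that of *MRPL23*, a mitochondrial ribosomal protein gene, was -0.24, with neither past an unadjusted p of 0.05.

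*MEG3* (ENSG00000214548, GRCh38, chr14:100779410-100861031, plus strand) had 0 counts in all 6 libraries, and a count of 0 allows up to 3 counts, or 0.125 to 0.148 CPM in a library. The other genes listed from its imprinted domain were also at the floor: *DLK1*, *MEG8* and *MEG9* had 0 counts in every library, and *RTL1* had 1 count in all. *UCA1* (ENSG00000214049, GRCh38, chr19:15828206-15836328, plus strand) had 1 count, in Vector control replicate 1, and 0 in the other 5 libraries. Of its neighbours, *OR10H1*, an olfactory receptor gene, had 0 counts, *CYP4F2* had 2 counts in all, and *CYP4F11*, a cytochrome P450 gene, stood at 1.01 ± 0.199 CPM (SD, n = 3) and 1.00 ± 0.187 CPM (SD, n = 3). No difference between groups was detectable for *MEG3* or *UCA1* at this depth.

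*HOTAIR* (ENSG00000228630, GRCh38, chr12:53962308-53974956, minus strand) varied little. It stood at 21.1, 22.2 and 20.5 CPM in GC0643 overexpression replicates 1, 2 and 3 and at 23.3, 23.5 and 18.5 CPM in Vector control replicates 1, 2 and 3. Vector control replicate 3 was the lowest library and the other 2 of that group the highest. The means were 21.3 ± 0.873 CPM (SD, n = 3) and 21.8 ± 2.84 CPM (SD, n = 3). This gave a log2 fold change of -0.033 (SE 0.15), with an adjusted p of 0.910 in edgeR's quasi-likelihood test, and -0.090 with GC correction. The HOXC genes beside it encode developmental transcription factors. *HOXC10* had a log2 fold change of -0.25 (unadjusted p = 0.0872), *HOXC11* of -0.18, *HOXC12*, at under 1.5 CPM in every library, of 0.43 and *HOXC13* of -0.21. *HOXC13* was the only 1 of the 17 tested neighbouring genes whose groups did not overlap, beside 22.4% of all genes tested. It stood at 17.7 ± 0.747 CPM (SD, n = 3) in GC0643 overexpression and 20.5 ± 1.69 CPM (SD, n = 3) in Vector control. Its unadjusted p was 0.159 in the same edgeR test. *HOXC11* overlaps *HOTAIR* on the opposite strand, and since the counting is not stated to use strand, reads in the overlap cannot be told apart.

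*PVT1* (ENSG00000249859, GRCh38, chr8:127794526-128187101, plus strand) was the steadiest member. It stood at 106.5, 103.4 and 107.7 CPM in GC0643 overexpression replicates 1, 2 and 3 and at 122.5, 114.3 and 121.6 CPM in Vector control replicates 1, 2 and 3. All GC0643 overexpression libraries lay below all Vector control libraries, and the lowest Vector control library was replicate 2. The means were 105.9 ± 2.21 CPM (SD, n = 3) and 119.5 ± 4.52 CPM (SD, n = 3). Fitted to the counts, the log2 fold change was -0.17 (SE 0.11), with an unadjusted p of 0.145 and an adjusted p of 0.377 in edgeR's quasi-likelihood test. With GC correction it was -0.25 (unadjusted p = 0.012). The spread of *PVT1* within groups was at the 0.668th percentile, so fewer than 1 in 100 genes were as steady. The edgeR test draws the spread of each gene towards that of genes of like level.

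The 3 tested small rows inside *PVT1* on its own strand had lower levels in GC0643 overexpression with no overlap between groups: *MIR1204* (log2 fold change -0.52, unadjusted p = 0.0411), ENSG00000278324 (-0.29, unadjusted p = 0.0679) and *RNVU1-32* (-0.44, unadjusted p = 0.138). Of all genes tested, 22.4% had groups that did not overlap and 18.3% passed an unadjusted p of 0.05. The other 4 rows on the *PVT1* strand had too few counts to test. Of the 3 rows on the opposite strand, ENSG00000278275 (0.25, groups not overlapping) and *RNU4-25P* (0.18) had the other sign and *LINC02912* (-0.23) the same sign, and none passed an unadjusted p of 0.05. *MIR1204* held 50, 43 and 47 counts in the GC0643 overexpression libraries and 64, 57 and 88 counts in the Vector control libraries. Reads of the rows on the *PVT1* strand may be the same as those of *PVT1*, so they are not further evidence. *MYC*, the transcription factor gene beside *PVT1*, stood at 412 ± 30.5 CPM (SD, n = 3) and 420 ± 40.8 CPM (SD, n = 3), with a log2 fold change of -0.027 (SE 0.12) and an adjusted p of 0.907 in edgeR's quasi-likelihood test, and -0.083 with GC correction. *CASC19*, a lncRNA gene of the same region, stood at 0.345 to 1.37 CPM over the 6 libraries (log2 fold change 0.63, unadjusted p = 0.186), while *CASC11* and *CCAT2* stayed below 0.63 CPM and were not tested.

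*TUG1* (ENSG00000253352, GRCh38, chr22:30969245-30979395, plus strand), which GENCODE types as protein-coding, was the one member past an unadjusted p of 0.05. It stood at 114, 89.0 and 110 CPM in GC0643 overexpression replicates 1, 2 and 3 and at 75.9, 94.4 and 76.2 CPM in Vector control replicates 1, 2 and 3. Vector control replicate 2 lay above GC0643 overexpression replicate 2, so the groups overlapped. The means were 104.3 ± 13.4 CPM (SD, n = 3) and 82.2 ± 10.6 CPM (SD, n = 3). In log2 terms the fold change was 0.34 (SE 0.14), with an unadjusted p of 0.0246 and an adjusted p of 0.260 in edgeR's quasi-likelihood test. The low libraries, Vector control replicates 1 and 3, are the 2 whose levels follow GC content upwards. The canonical *TUG1* transcript has a GC content of 43.1%. The slant with GC content largely runs with the groups, so the 2 cannot be told apart, and the cause was not tested. With GC correction the log2 fold change was 0.12 (unadjusted p = 0.213). Without Vector control replicate 2 it was 0.46, with an adjusted p of 0.0277 in the same test, but then 3813 of all genes tested also passed. With that library left out and GC correction together it was 0.15 (unadjusted p = 0.188). The 4 small rows inside *TUG1* on its own strand had log2 fold changes of 0.23 to 0.41, and 2 rows on the opposite strand had 0.47 (ENSG00000269972) and 0.31 (ENSG00000269987). Reads of these antisense rows cannot be told apart from those of *TUG1*. The neighbours *MORC2*, a chromatin ATPase gene (-0.037), and *SMTN*, a smooth muscle cytoskeletal protein gene (0.048), lay near 0.

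*CYTOR* (ENSG00000222041, GRCh38, chr2:87454781-87636740, plus strand) stood at 13.5, 15.1 and 14.1 CPM in GC0643 overexpression replicates 1, 2 and 3 and at 12.9, 14.6 and 12.9 CPM in Vector control replicates 1, 2 and 3. The groups overlapped, and the means were 14.2 ± 0.795 CPM (SD, n = 3) and 13.5 ± 0.986 CPM (SD, n = 3). Its log2 fold change was 0.081 (SE 0.15), with an adjusted p of 0.761 in edgeR's quasi-likelihood test, and -0.028 with GC correction. *MIR4435-2HG* (GRCh38, chr2:111006015-111523376, minus strand) had a log2 fold change of -0.018. Its canonical transcript and that of *CYTOR* align over 267 bases with 100% identity. Of the 100-base stretches of the *CYTOR* transcript, 50.8% occur exactly in *MIR4435-2HG* transcripts, and of its 50-base stretches 69.7%. The 2 counts are therefore uncertain one by one. Their sum stood at 24.4 ± 1.12 CPM (SD, n = 3) and 23.8 ± 2.75 CPM (SD, n = 3), with a log2 fold change of 0.039 (SE 0.14) and an adjusted p of 0.887 in edgeR's quasi-likelihood test. *CYTOR* took 54.3 to 59.7% of the sum in the 6 libraries. Whether reads that map to both genes were counted is not given, so the sum may also miss such reads. Of the other neighbours, *KRCC1* had a log2 fold change of 0.33 (unadjusted p = 0.102), and *PLGLB1* and *PLGLB2*, near-identical copies of each other, stayed below 0.43 CPM.

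**Figure D3:**
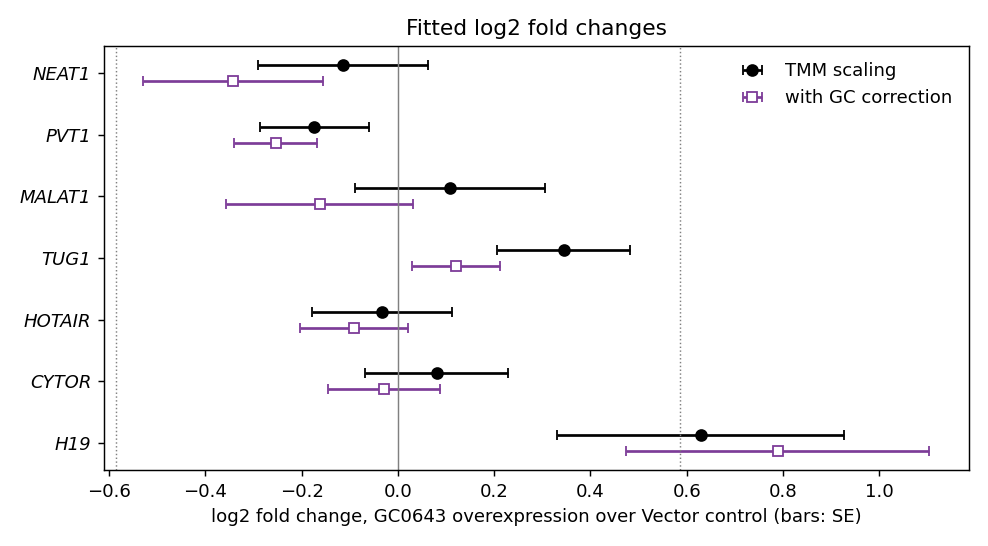
Log2 fold change of GC0643 overexpression over Vector control for the 7 tested lncRNAs, with bars for the SE, under TMM scaling (black circles) and with GC correction (open squares); dotted lines mark a fold change of 1.5 either way. GC correction turns *MALAT1* from 0.11 to -0.16 and *CYTOR* from 0.081 to -0.028, brings *TUG1* from 0.34 to 0.12 and moves *H19* from 0.63 to 0.79.

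Levels of different genes were compared per length, as the mean CPM per kb over the 6 libraries. Per kb of the canonical transcript the order was *PVT1* (46.1 ± 3.31, SD, n = 6), *NEAT1* (19.4 ± 4.14), *CYTOR* (13.6 ± 0.889), *TUG1* (12.5 ± 2.18), *MALAT1* (10.8 ± 2.61), *HOTAIR* (8.89 ± 0.784) and *H19* (4.96 ± 2.37). Only the step from *PVT1* to *NEAT1* was wider than the range of the libraries, and each later neighbour in the order overlapped the one before it. The order depends on the length used. Per kb of all annotated exons together, *NEAT1* (19.4 ± 4.13), *MALAT1* (10.8 ± 2.61), *TUG1* (9.19 ± 1.60) and *HOTAIR* (6.92 ± 0.610) came before *PVT1* (4.43 ± 0.318), *H19* (1.58 ± 0.759) and *CYTOR* (0.779 ± 0.0510). *PVT1* and *CYTOR* have many alternative exons, and which of them were transcribed was not tested. Reads that *CYTOR* shares with *MIR4435-2HG* may be missing from its level. For *NEAT1* both lengths, 22743 and 22767 bases, span the long transcript, while counts per base were far higher near its 5′ end. A level per kb of the short transcript was not computed, so the place of *NEAT1* below *PVT1* holds for the long length only.

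**Figure D4:**
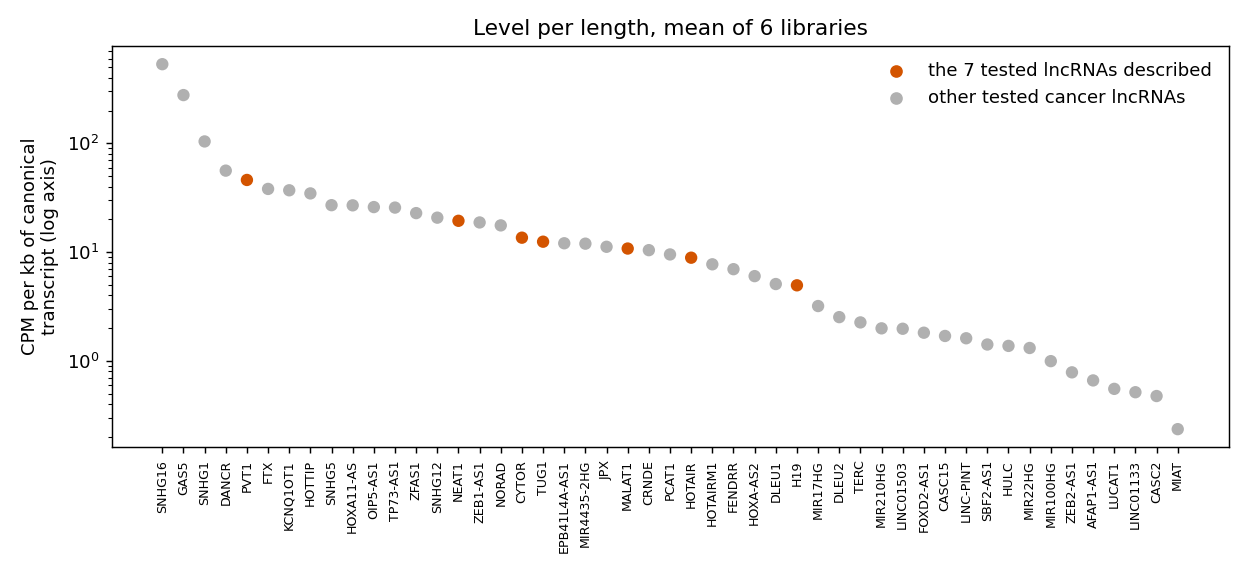
Mean CPM per kb of the canonical transcript (log axis) over the 6 libraries, for the 7 tested lncRNAs (orange) and 42 other tested cancer lncRNAs (grey), in descending order. *PVT1* ranks 5 and *H19* ranks 31 of 49, and *SNHG16* and *GAS5* stand highest.

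Over the 6 libraries the members peaked in different places. *NEAT1*, *MALAT1*, *H19* and *TUG1* were all highest in GC0643 overexpression replicate 1, while *PVT1* was highest in Vector control replicate 1, *CYTOR* was highest in GC0643 overexpression replicate 2 and *HOTAIR* in Vector control replicate 2. Likeness to other genes was measured as the root mean square difference of centred log2 CPM over the 6 libraries, among 17359 genes, as a description with no test. *PVT1* was nearest to *TRIP10* (0.016), *TUG1* to *BRWD1* (0.025) and *ERAP1* (0.025), *CYTOR* to *CHPT1* (0.027) and *HOTAIR* to *SNORD49B* (0.032). *NEAT1* was nearest to ENSG00000277599 (0.035), a window inside *NEAT1* itself, and *MALAT1* to ENSG00000286132 (0.038). *H19* had no gene closer than *FABP3* (0.194).

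**Figure D5:**
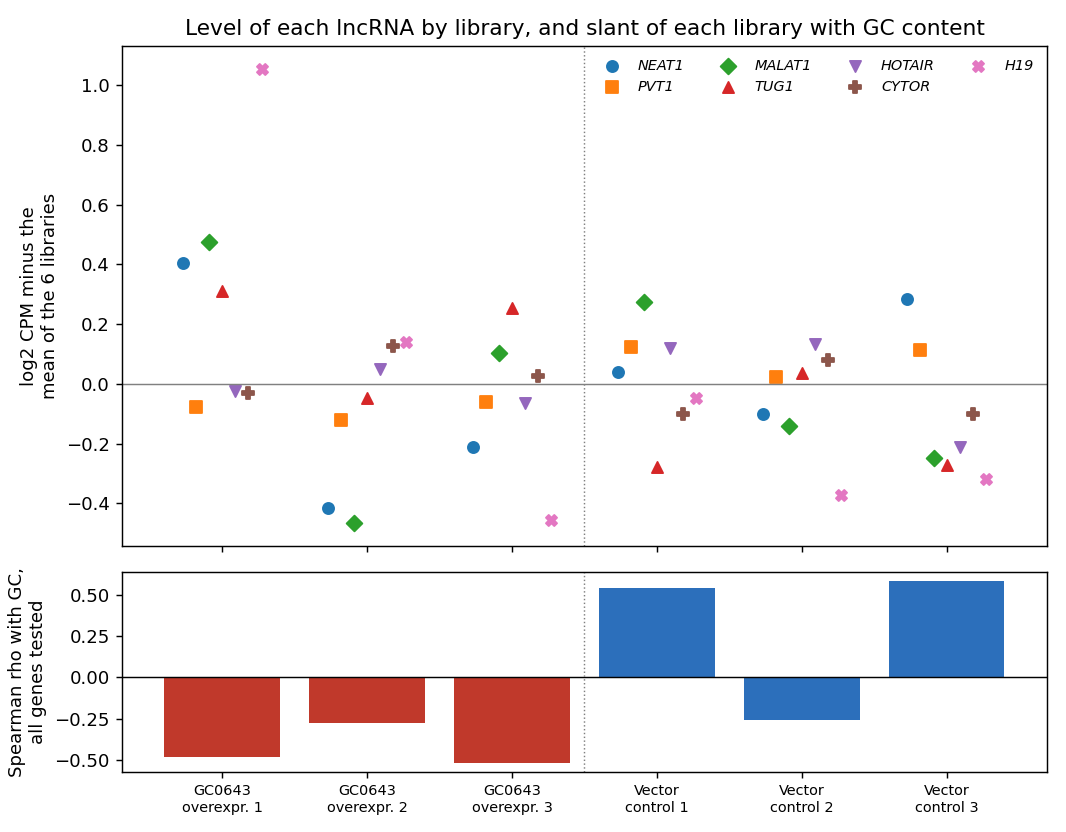
Top, log2 CPM of each of the 7 tested lncRNAs minus its mean over the 6 libraries, by library; bottom, the Spearman correlation across genes between the level in a library and GC content (GC0643 overexpression in red, Vector control in blue). *H19* stands at 1.06 in GC0643 overexpression replicate 1, and *TUG1* is lowest in the 2 Vector control libraries with positive bars, 0.54 and 0.58.

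Proteins known to work with the members were read from the same test. All 40 listed genes were tested, 32 with a positive and 8 with a negative log2 fold change, and the median was 0.23 against 0.018 over all genes tested. By the unadjusted p, 10 of 40 passed with higher and 0 with lower levels in GC0643 overexpression, beside the 18.3% of all genes that passed in either direction, and none passed the adjusted p. With GC correction 30 were positive and 10 negative, the median was 0.080 and 0 of the 40 passed the unadjusted p. Among the 10 paraspeckle proteins, *MATR3* (log2 fold change 0.42), *HNRNPK* (0.38) and *HNRNPH3* (0.42), all RNA-binding proteins, had the smallest p. The core paraspeckle genes *NONO* (0.12) and *SFPQ* (0.20), named after their values were seen, did not pass. All 10 nuclear speckle genes had positive values (median 0.29), while with GC correction *SRSF6* (-0.15) and *SRRM1* (-0.075), named after their values were seen, were negative and the median was 0.085. The smallest p in this group fell to the splicing factor genes *SRSF3* (0.41) and *SRSF7* (0.35) and to the speckle scaffold gene *SON* (0.31), which did not pass. Of the 14 genes of PRC2 and other *HOTAIR* partners, the PRC2 subunit genes *SUZ12* (0.49, unadjusted p = 0.00927), *AEBP2* (0.47) and *MTF2* (0.49) had the smallest p. The 6 genes of *MALAT1* RNA metabolism, among them *TENT2* (0.32), *RPP30* (0.23) and *POP1* (0.30), gave 0 at the unadjusted p. *SUZ12* stood at 52.9, 52.5 and 61.0 CPM in GC0643 overexpression replicates 1, 2 and 3 and at 34.6, 51.1 and 32.8 CPM in Vector control replicates 1, 2 and 3. Vector control replicate 2 was close to the GC0643 overexpression libraries, as for *TUG1*.

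Of a wider list of 60 cancer lncRNAs, 58 had a row and 43 were tested, 27 with a positive and 16 with a negative log2 fold change (median 0.096). By the unadjusted p, 6 passed with higher and 1 with lower levels in GC0643 overexpression. Of the 3641 lncRNA genes tested, 169 passed with higher and 154 with lower levels. Of all 19528 genes tested, 2553 passed with higher and 1028 with lower levels, 18.3% in either direction. Of the list, *CASC2* alone passed a fold change of 1.5 as well (log2 fold change 0.85, SE 0.29, unadjusted p = 0.0105 in edgeR's quasi-likelihood test). It stood at 1.78 to 2.27 CPM in GC0643 overexpression and 0.936 to 1.31 CPM in Vector control. Both thresholds were passed by 2.47% of all genes and 3.46% of lncRNA genes. These counts are not read as a result about the list. With GC correction *CASC2* did not pass (0.56, unadjusted p = 0.059), and the 1 gene past both was another, not reported here by name. Over the list, GC correction gave a median of 0.057. Past the unadjusted p were then 7 of the 43, 5 with higher and 2 with lower levels in GC0643 overexpression. Among the 3641 lncRNA genes tested, 277 passed with the same correction, 94 higher and 183 lower, and 6.11% of all genes passed. Without GC correction, the others with the smallest p included *NORAD*, a decoy of PUMILIO proteins (0.56), and *GAS5*, a host of small nucleolar RNAs (0.36). *SNHG5* (0.43), *SBF2-AS1* (0.54) and *SNHG16* (0.33) completed them. The 1 lower gene was *HOXA11-AS* (-0.38), named after its value was seen. None passed the adjusted p in edgeR's quasi-likelihood test. *SNHG16*, *GAS5*, *SNHG1* and *DANCR* had the highest levels per kb, 535, 278, 104 and 56.2 CPM per kb of the canonical transcript. Of the 27 neighbouring genes listed, 17 were tested, 5 with a positive and 12 with a negative log2 fold change (median -0.10), and 0 passed the unadjusted p. With GC correction 10 were positive and 7 negative (median 0.013), and again 0 passed.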

How the data were processed

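The authors deposited 1 table of whole-number counts per gene, by Ensembl gene ID, for 6 libraries made with the NEBNext Ultra RNA kit. Per the labels' processing notes, Trimmomatic 0.32, HISAT2 2.1.0, featureCounts 2.0.0 and GRCh38 were used. For its tumour RNA-seq, made with another kit but the same tools and versions, the study counted uniquely mapped read pairs on every exon overlapped, with no strand option listed. Counting options for these 6 libraries are not given in the sources used here. IDs were matched to GENCODE 44 (58472 of 58825 matched). Genes were filtered with filterByExpr and tested with edgeR 4.0.16 (TMM, quasi-likelihood, Benjamini-Hochberg) in R 4.3.3, with code that was first tested on simulated data. CPM are TMM-scaled. The GC correction used loess offsets (span 0.3). Alternatives used limma 3.58.1 and DESeq2 1.42.0. The 10 members are all named, neighbours are named from a fixed list (1 neighbour and 1 other lncRNA are not reported here by name), partners by the 3 smallest p of each group, other lncRNAs by the 6 smallest p and the 4 highest levels per length. The members and lists were chosen with earlier results of these data known. Totals of at least 20376722 counts set a floor of 3 counts at 0.148 CPM or less.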

Additional observations from a re-analysis of the deposited data

How the results depend on the processing

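*PVT1* (-0.31 to -0.16), *TUG1* (0.12 to 0.46) and *H19* (0.12 to 0.92) kept the sign of their log2 fold change under all 18 alternatives. *TUG1* was the 1 member past the adjusted p, in the fit without Vector control replicate 2, so leaving out a library gave 0 to 1 members. *H19* was the 1 member past a fold change of 1.5 and p under 0.05 under the likelihood ratio test, DESeq2 size factors, no filter, GC correction, length correction, the replicate block with GC correction, and without Vector control replicate 2 with GC correction, and leaving out a library gave 0 to 1. Other lncRNAs past both were 2 under limma voom, no filter, the replicate block, and without Vector control replicate 2 with GC correction. They were 1 to 4 when a library was left out. *CASC2* was not among them with GC correction. Neighbours past both were 0 to 1 and partners 0 to 8. The background moved too: without Vector control replicate 2, 1741 of 19988 genes tested were past both with higher levels and 400 with lower levels. The counts of these lists are therefore not read as results about them. The log2 fold change of *MALAT1* turned to -0.16 with GC correction, -0.087 with length correction, -0.17 with the replicate block and GC correction and -0.29 without Vector control replicate 2 with GC correction, and ran from -0.13 to 0.31 when a library was left out (-0.0016 without Vector control replicate 3). *NEAT1* turned to 0.035 without GC0643 overexpression replicate 2, and *HOTAIR* to 0.010 and 0.029 without Vector control replicates 1 and 2 (range -0.39 to 0.035 and -0.15 to 0.029). *CYTOR* turned to -0.028 with GC correction, -0.030 with the replicate block and GC correction and -0.0028 without Vector control replicate 2 with GC correction. The sum of *CYTOR* and *MIR4435-2HG* turned to -0.092, -0.093 and -0.041 under the same settings and ran from -0.035 to 0.14 when a library was left out (-0.0030 without GC0643 overexpression replicate 2). The causes were not tested. The replicate block alone gave *TUG1* a log2 fold change of 0.34 (adjusted p = 0.449 in edgeR's quasi-likelihood test) and 24 genes past the adjusted p, against 0 without it; 3813 passed without Vector control replicate 2 and 224 with no filter. Deviations from the group means of same-numbered libraries had correlations of -0.31 to -0.028, which gave no sign of pairing. The slant of each library with GC content enters these deviations and could hide a pairing. Over all genes, calls at a fold change of 1.5 and p under 0.05 were 312 higher and 170 lower, 249 and 232 with DESeq2 size factors and 123 and 170 with GC correction, where 1194 genes passed the unadjusted p against 3581.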
